A study of Mus musculus with 40 samples.

Results

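The proteasome genes of the kidney cortex were followed in RNA sequencing data from diabetic and non-diabetic mice. Members were the rows of the deposited count table whose symbol begins with Psma, Psmb, Psmc, Psmd, Psme, Psmf or Psmg followed by a digit, leaving out pseudogene, antisense and opposite-strand names. This rule found 50 genes among the 55401 in the table, and every one was present in the GENCODE annotation used for positions. By textbook role they comprised 8 alpha ring genes, 7 constitutive beta ring genes, 3 immunoproteasome genes and the thymus form Psmb11. The regulatory particle gave 6 base ATPases, 3 further base subunits and 8 lid subunits. The remaining members were 7 assembly chaperones, 6 activators or inhibitors, and Psmc3ip, a meiotic recombination factor that carries the symbol but is not a subunit.

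Total RNA from the renal cortex of individual male C57BL/6J mice was depleted of ribosomal RNA and sequenced, giving 1 library from each of 40 mice. Akita mice were heterozygous for Ins2-Akita, an insulin gene mutation that damages the insulin-producing cells of the pancreas and makes the animals diabetic, and wild type (WT) littermates served as controls. In the ethanol arm, WT and Akita mice received the ethanol vehicle or MitoGamide, a scavenger of reactive dicarbonyls targeted to mitochondria, at 10 mg/kg in that vehicle. In the water arm, WT and Akita mice received the water vehicle or MitoQ, an antioxidant targeted to mitochondria, and the dose of MitoQ is not given in the sources used here. Each of the 8 groups held 5 mice. All 40 samples carry the same treatment text, which gives daily gavage from 6 weeks of age until 22 weeks but names only the ethanol vehicle and MitoGamide, so that the ages of the water arm rest on a text that mentions neither water nor MitoQ.

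The proteasome degrades proteins that carry chains of ubiquitin. Its barrel-shaped core particle is built from stacked rings of alpha subunits, which gate the entrance, and beta subunits, some of which cut the substrate. A regulatory particle caps the core: its lid removes ubiquitin, and its base holds ATPases that unfold the substrate and push it into the barrel. Interferon signalling replaces the cutting beta subunits by immunoproteasome forms that favour peptides for antigen presentation. In the kidney the proximal tubule, which takes up filtered protein, makes up most of the cortex.

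Proteasome transcripts were detected at widely different levels. Levels are given here as normalized CPM (counts scaled to a common library size) per kb of transcript, as mean ± SD over the 20 libraries of the ethanol arm. The highest were the cutting subunits Psmb5 (67.2 ± 9.26) and Psmb6 (65.9 ± 5.38) and the structural beta subunit Psmb4 (59.4 ± 7.35), and the first 2 of these did not differ beyond their spread. The cutting immunoproteasome counterparts of Psmb5, Psmb6 and Psmb7 were far lower, with Psmb10 at 4.13 ± 0.774, Psmb8 at 2.46 ± 0.621 and Psmb9 at 2.05 ± 0.549. Psmb7, the constitutive counterpart of Psmb10, stood at 48.8 ± 4.06. The lowest member tested in every comparison was Psmc3ip at 0.833 ± 0.167. Psmb11, the thymus form, reached 0.097 per kb, and Psma8, the testis form of Psma7, reached 0.0678 and was listed at 0 in 11 of the 40 libraries. These 2 genes had too few counts for a test in most comparisons.

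The members lie on 16 chromosomes, with 10 of them on chromosome 11, so that no single locus carries the group. Because the counting divides reads among matching transcripts, near-identical copies limit what a count can show. Of the 50 members, 10 shared at least 20% of their 31-base sequences with another annotated gene and 13 shared none. The largest shares were those of Psme2b (78.4%, nearly all with Psme2) and Psmb5 (71.7%, mostly with the pseudogene Gm3375). The pseudogene itself was at a mean of 0.25 counts per library. An annotated gene on the opposite strand overlapped 19 members, and whether the counting used strand is not given in the sources used here.

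Total counts ranged from 9106654 to 24321424 per library. The summed CPM of the 50 members lay between 1813 and 2497 in all 20 libraries of the ethanol arm, but between 514.5 and 2382 in the water arm. In the water arm 11 libraries held under 6000 CPM of ribosomal protein transcripts (1493 to 5530, against 7295 to 9811 in the ethanol arm and 6097 to 9648 in the other 9 water arm libraries). These were WT mice on water 2, 3 and 4, Akita mice on water 2, 3 and 5, WT mice on MitoQ 1 and 3, and Akita mice on MitoQ 2, 3 and 4. Their proteasome sum was 514.5 to 1595 CPM, below every one of the other 29 libraries (1777 to 2497). They held 806 to 1304 CPM of olfactory receptor transcripts, against 249 to 827 in the others, and 22.5% to 49.2% of their counts were mitochondrial, against 14.3% to 35.4%. The part of RNA quality in these differences was not tested, and the counts of calls and the medians over members from the water arm are given with and without these libraries. Without them, 2 mice on water of each genotype, 3 WT mice on MitoQ and 2 Akita mice on MitoQ remain. Markers of the proximal tubule were abundant, with the uptake receptor Lrp2 at a mean of 6836 normalized CPM in WT mice on ethanol and between 2296 and 7450 over the 40 libraries.

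**Figure D1:**
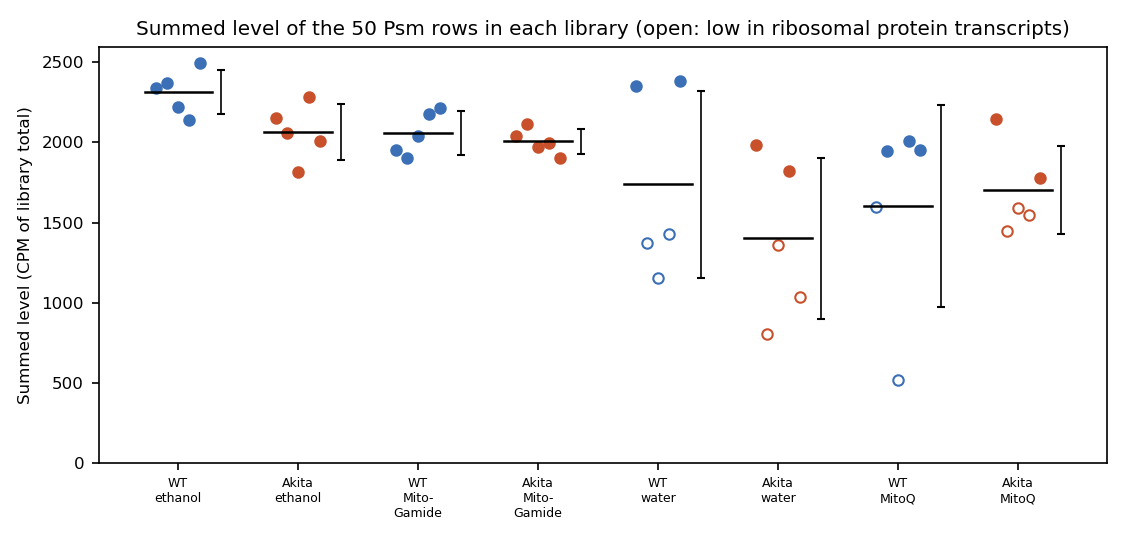
Summed CPM of the 50 Psm genes in each of the 40 libraries, by group of 5 mice, with the mean as a bar and the SD as a whisker. Open points mark the 11 libraries under 6000 CPM of ribosomal protein transcripts, all in the water arm and all at or below 1595 CPM, whereas the libraries of the ethanol arm lie between 1813 and 2497.

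Summed by role and normalized over the 40 libraries, the lid genes came to 422 ± 21.1 normalized CPM in WT and 378 ± 15.3 in Akita mice on vehicle, and to 400 ± 22.0 in WT and 410 ± 41.0 in Akita mice on MitoGamide (SD, n = 5 each). The constitutive beta ring summed to 374 ± 20.3, 351 ± 21.5, 330 ± 33.9 and 341 ± 3.66 in the same order. In the water arm the lid summed to 337 ± 86.2 in WT and 295 ± 57.8 in Akita mice on water, and to 324 ± 65.6 and 318 ± 46.3 on MitoQ, with SDs larger than the differences between these groups. The 3 immunoproteasome genes summed to between 9.38 ± 1.73 (Akita mice on MitoQ) and 13.4 ± 1.97 (Akita mice on ethanol) across the 8 groups. These sums include all libraries and are descriptions without a test.

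The first comparison asked how diabetes alters proteasome transcripts in mice given the ethanol vehicle. Akita mice had lower transcripts for much of the regulatory particle and for some of the alpha ring when compared to WT, while the constitutive beta ring passed no test and the assembly chaperone Psmd9 was higher. The changes were small, with log2 fold changes of -0.38 to -0.18 in the lower genes. In edgeR's quasi-likelihood test with Benjamini-Hochberg adjustment over 17747 genes, 16 of the 48 tested members passed an adjusted p of 0.05, against 16.4% of all genes. Of these 15 were lower (8.22% of all genes were lower) and 1 was higher (8.18% of all genes). For 12 members every Akita library was below every WT library, as was so for 6.52% of all genes. The median log2 fold change was -0.10 over the tested members and 0.00 over all genes. The members' summed level was 1984 ± 71.7 normalized CPM in Akita mice and 2198 ± 79.1 in WT mice (SD, n = 5 each).

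**Figure D2:**
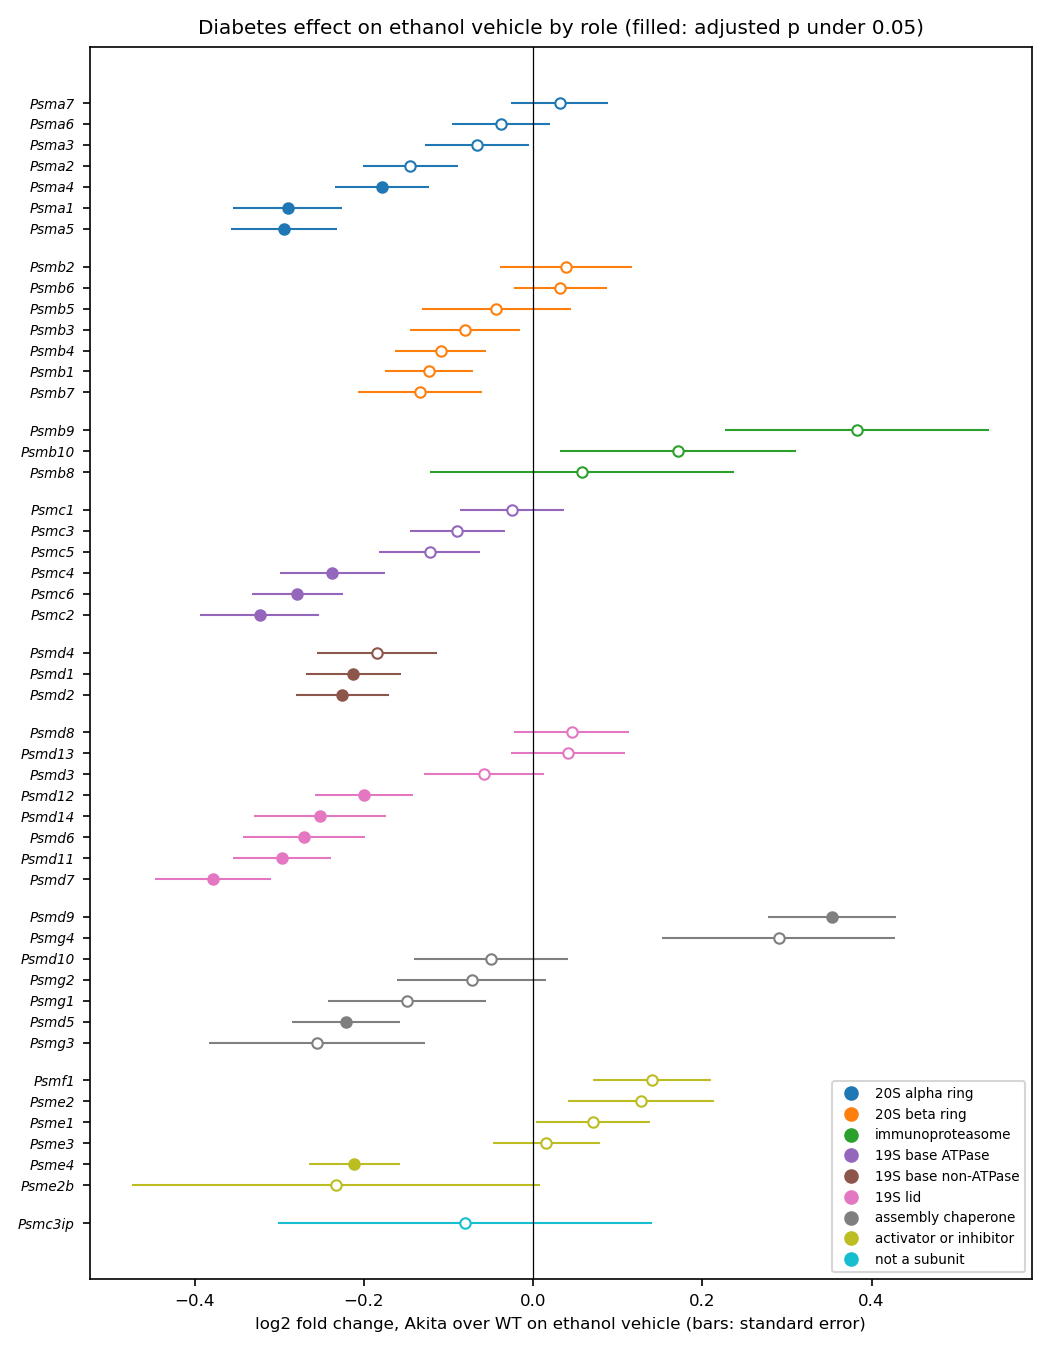
Log2 fold change of Akita over WT mice on the ethanol vehicle for each tested member, grouped by role, with standard errors as bars and filled points where the adjusted p was under 0.05. The filled points on the left are mostly subunits of the regulatory particle and alpha ring, and the one on the right is Psmd9 at 0.35.

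The lid, which holds the deubiquitinase that strips ubiquitin before degradation, had 5 of 8 members lower and a median log2 fold change of -0.23. Psmd7, the partner of the deubiquitinase Psmd14 in the lid, stood at 34.3, 32.0, 32.1, 31.9 and 32.8 normalized CPM in WT mice and at 23.3, 27.4, 21.5, 26.7 and 24.9 in Akita mice. All Akita libraries were below all WT libraries, and the log2 fold change was -0.38 ± 0.07 (SE, edgeR adjusted p = 0.0022), with no 31-base sequence shared with another gene. Psmd7 lies at chr8:107580381-107588464 on the minus strand of GRCm38. Psmd11, a scaffold subunit of the lid at chr11:80428615-80473248 on the plus strand, stood at 84.8, 75.5, 71.2, 70.6 and 74.2 in WT mice and at 57.8, 60.7, 61.5, 62.9 and 59.7 in Akita mice. The groups did not overlap here either, and WT replicate 1 was the highest (log2 fold change -0.30 ± 0.06, adjusted p = 0.0036). Psmd6, Psmd12 and the deubiquitinase Psmd14 were the other lower lid members, with log2 fold changes of -0.27, -0.20 and -0.25. Psmd3, Psmd8 and Psmd13 did not pass (-0.06, 0.05 and 0.04).

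In the base, 3 of 6 ATPases were lower and all 6 log2 fold changes were negative, with a median of -0.18. Psmc6, at chr14:45329788-45349705 on the plus strand, stood at 55.4, 53.6, 52.5, 51.3 and 51.6 normalized CPM in WT mice and at 45.2, 40.7, 43.1, 46.1 and 40.3 in Akita mice. Its log2 fold change was -0.28 ± 0.05 (adjusted p = 0.0035), with a clear gap between the groups. Psmc2, another of the ATPases that form the unfolding ring, stood at 68.5, 65.1, 60.7, 59.0 and 63.8 in WT mice and at 54.3, 52.6, 42.2, 51.4 and 49.8 in Akita mice. Akita replicate 3 was the lowest and no Akita library reached the WT range (-0.32 ± 0.07, adjusted p = 0.0069). Psmc4 fell from 55.2 ± 2.71 to 46.2 ± 3.48 (SD, n = 5 each, adjusted p = 0.019). Of the non-ATPase base subunits, the scaffold Psmd2 fell from 125.5 ± 4.39 to 106 ± 6.33 (adjusted p = 0.013). It shares 31.6% of its 31-base sequences, mostly with the pseudogene Gm5422, which was at a mean of 0.7 counts per library. Psmd1, the other scaffold, was lower by a log2 fold change of -0.21, and the ubiquitin receptor Psmd4 did not pass (-0.18, adjusted p = 0.097).

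The core particle showed 3 lower genes, all in the alpha ring. Psma5 stood at 25.6, 26.7, 23.8, 24.4 and 26.6 normalized CPM in WT mice and at 20.6, 21.7, 18.8, 20.6 and 20.6 in Akita mice. The groups did not overlap (log2 fold change -0.29 ± 0.06, adjusted p = 0.0060), but 61% of its 31-base sequences recur elsewhere, mostly in the pseudogene Gm8394. Psma5 lies at chr3:108256926-108279974 on the plus strand. Psma1 stood at 51.7, 54.5, 47.8, 47.8 and 54.3 in WT mice and at 42.7, 38.2, 40.1, 46.0 and 39.9 in Akita mice. It shared 0.772% of such sequences and its groups did not overlap (-0.29 ± 0.06, adjusted p = 0.0081). Psma4 was the third of these genes, at a log2 fold change of -0.18, and Psma2, Psma3, Psma6 and Psma7 did not pass.

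None of the 7 constitutive beta ring genes passed, with log2 fold changes from -0.13 to 0.04. Psmb5, the chymotrypsin-like subunit, stood at 57.6, 61.4, 54.2, 49.2 and 57.4 normalized CPM in WT mice and at 62.7, 50.8, 44.5, 58.7 and 51.3 in Akita mice. The groups overlapped widely (-0.04 ± 0.09, adjusted p = 0.79). Psmb6, the caspase-like subunit, differed by 0.03 ± 0.06 and Psmb7, the trypsin-like subunit, by -0.13 ± 0.07 (adjusted p = 0.75 and 0.24). Across particles, 10 of the 17 base and lid genes and 3 of the 14 constitutive core genes tested were lower, with medians of -0.21 and -0.09. The difference between the particles was not tested.

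Among genes that assemble or cap the proteasome, Psmd9 was the only higher member. This chaperone of the base, at chr5:123169413-123250131 on the plus strand, stood at 16.1, 13.2, 14.5, 14.1 and 14.5 normalized CPM in WT mice and at 17.4, 18.8, 20.5, 18.4 and 16.4 in Akita mice. Every Akita library was above every WT library (log2 fold change 0.35 ± 0.08, adjusted p = 0.0062). Of its 31-base sequences 26.6% recur in other genes but only 2.02% on the same strand, and the gene that shares most of them (25%) is Gm26745 on the opposite strand. Hpd, a liver and kidney enzyme of tyrosine breakdown that overlaps Psmd9 on the opposite strand, stood at 18.95 ± 6.38 normalized CPM in WT and 27.5 ± 14.3 in Akita mice. Psmd5, another chaperone of the base, was lower (-0.22). The core chaperones Psmg1 to Psmg4 did not pass, and neither did Psmd10, which is not a core chaperone. Psme4, a nuclear cap that acts without ubiquitin, fell from 229 ± 6.18 to 196 ± 8.93 (SD, n = 5 each, adjusted p = 0.017). Psme1 and Psme2, the interferon-inducible PA28 cap, gave log2 fold changes of 0.07 ± 0.07 and 0.13 ± 0.09 (adjusted p = 0.52 and 0.35), and the inhibitor Psmf1 gave 0.14.

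**Figure D3:**
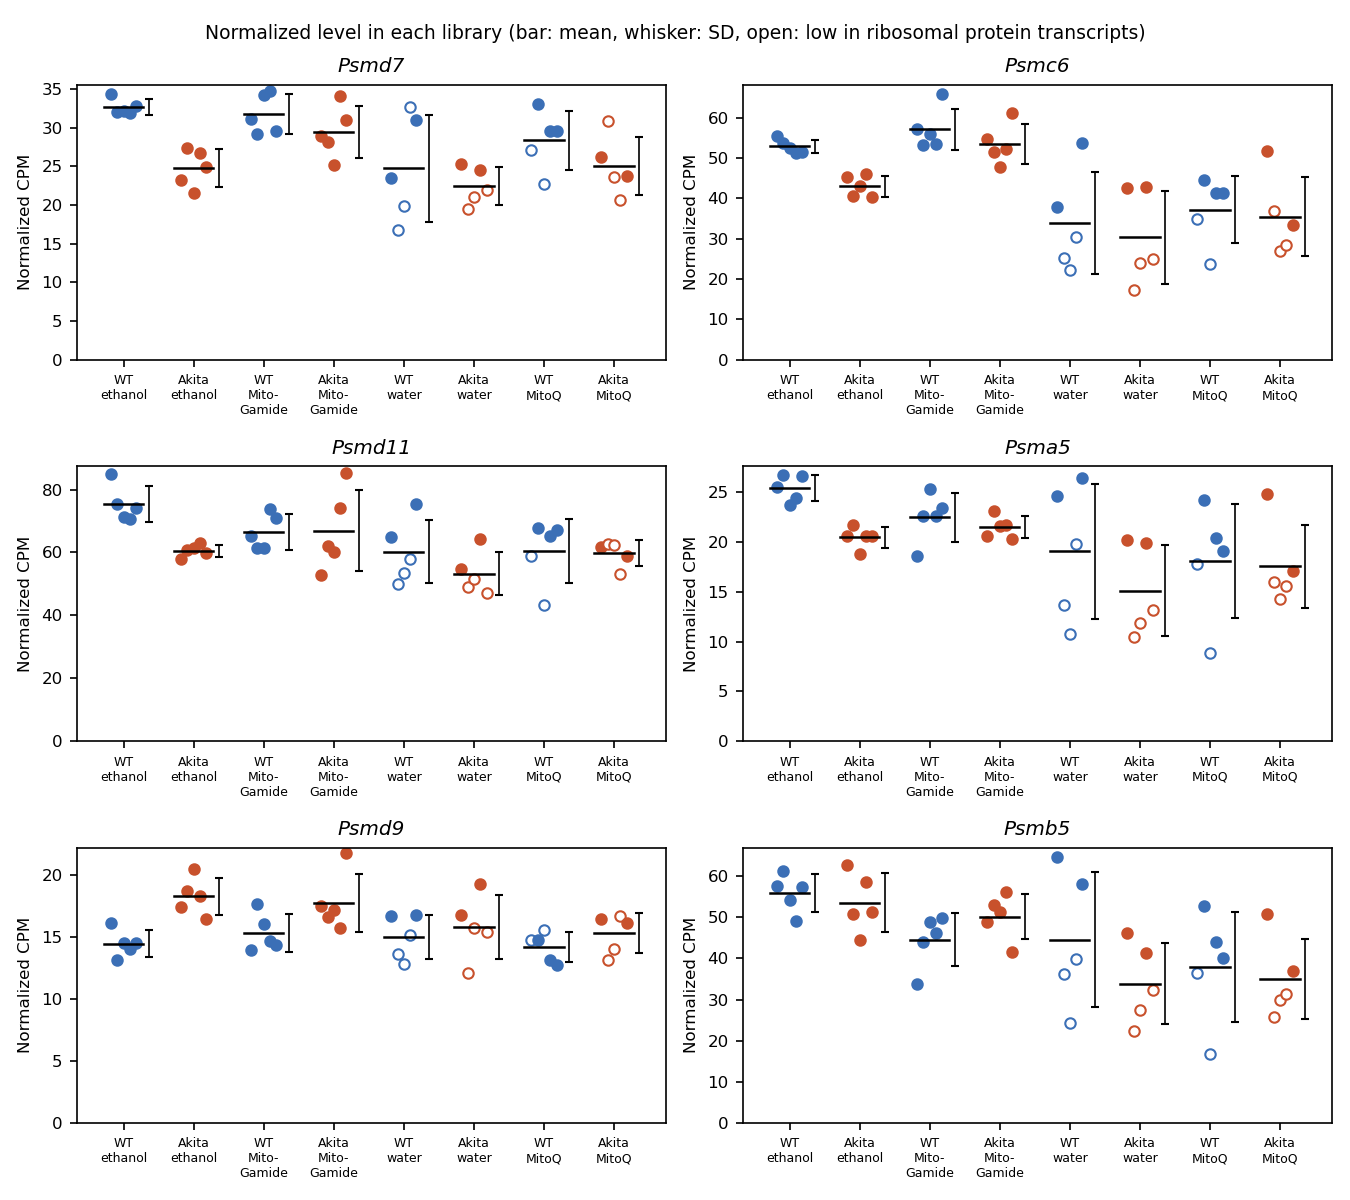
Normalized CPM of members in each of the 40 libraries by group, with mean and SD, and open points for the 11 libraries low in ribosomal protein transcripts. On ethanol, Psmd7 lies between 31.9 and 34.3 in WT mice and between 21.5 and 27.4 in Akita mice, and in the water arm the open points lie mostly below the filled ones for Psma5 and Psmb5.

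The 3 immunoproteasome genes had log2 fold changes on the other side of zero, and none passed the test. Psmb9 stood at 2.95, 2.49, 2.28, 2.86 and 2.37 normalized CPM in WT mice and at 3.81, 3.09, 3.74, 2.46 and 3.56 in Akita mice. Akita replicate 4 lay inside the WT range, the other 4 Akita libraries lay above it, and the log2 fold change was 0.38 ± 0.16 (adjusted p = 0.11). Psmb9 passed without that replicate. No other fit of this comparison called it, whether another single library was left out or DESeq2 or another setting was used. Psmb8 and Psmb10 overlapped between the groups, at 0.06 ± 0.18 and 0.17 ± 0.14 (adjusted p = 0.86 and 0.45). Per unit of length, Psmb9 made up 2.71% ± 0.262 of the summed level of Psmb9 and its constitutive counterpart Psmb6 in WT mice and 3.45% ± 0.640 in Akita mice. Psmb8 made up 3.36% ± 0.429 and 3.76% ± 1.24 of its sum with Psmb5, and Psmb10 made up 6.92% ± 0.586 and 8.47% ± 1.998 of its sum with Psmb7. Over 12 genes of class I antigen presentation and interferon signalling the median log2 fold change was 0.14, and the smallest p belonged to Tapbp, which loads peptides onto class I molecules (0.16 ± 0.06, edgeR adjusted p = 0.098).

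**Figure D4:**
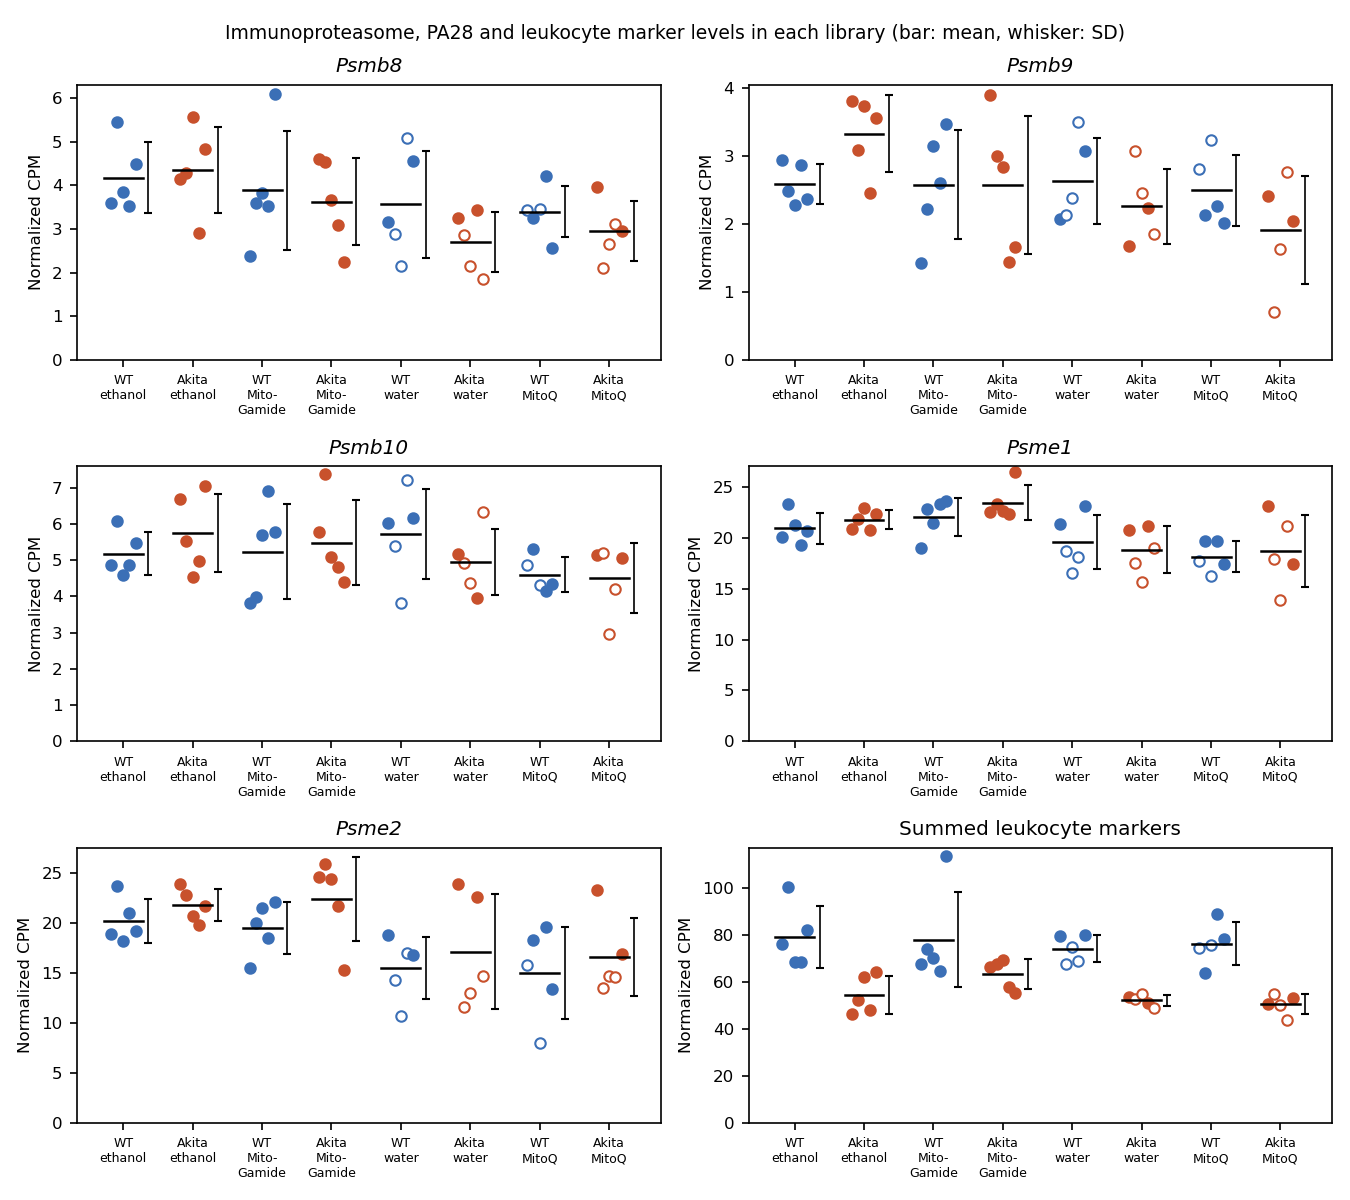
Normalized CPM of Psmb8, Psmb9, Psmb10, Psme1 and Psme2 and of the summed leukocyte markers in each of the 40 libraries, with mean and SD per group and open points for libraries low in ribosomal protein transcripts. The immunoproteasome genes overlap between genotypes on ethanol, while the leukocyte sum does not (46.4 to 64.2 in Akita and 68.4 to 100.2 in WT mice).

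Markers of other cells moved with genotype in the same libraries. The sum of 14 leukocyte markers was 46.4 to 64.2 normalized CPM in Akita mice and 68.4 to 100.2 in WT mice, and of the 9 abundant enough for a test, Csf1r and Ptprc were lower (log2 fold change -0.59 and -0.73, adjusted p = 0.0081 and 0.00062). No marker of this list was at 0 in every library, though Cd79a and Nkg7 were at 0 in 7 and 4 of the 40. The podocyte gene Nphs1 (0.58) and the collecting duct gene Aqp2 (0.84) were higher, and so was 1 of 3 liver markers, Serpina1a (1.28, adjusted p = 0.040). Of the 5 proximal tubule markers the receptor Lrp2 was lower (-0.47), while the median of that list was -0.01. The mitochondrial share of counts was 21.6% to 28.7% in Akita against 20.1% to 22.6% in WT mice. Their part in the proteasome result was not tested. In bulk tissue, fewer cells of a type and less RNA per cell cannot be told apart.

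The count of 16 was the same, with the same genes, in DESeq2 (17.6% of all genes it tested). Shares of all genes are edgeR's unless DESeq2 is named. It fell to 8 without a filter on low counts, to 10 with offsets for transcript length and GC content (8 of them shared, with Psmd3 and Psmd4 added), to 9 without WT replicate 1 and to 1 (Psmd9) when all 40 libraries shared 1 fit. When each of the 10 libraries was left out in turn, 9 members were called in all: Psma1, Psma5, Psmc2, Psmc6, Psmd2, Psmd7, Psmd9, Psmd11 and Psme4. Apart from DESeq2, no share of all genes is given for these other fits, so their counts show only how the calls depend on the fit.

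Genes that work with the proteasome but lie outside the symbol rule were also examined, as a list of 20 partners. Of these 10 were lower in Akita mice on ethanol at an adjusted p of 0.05 in edgeR (8.22% of all genes were lower and 8.18% higher), the other 10 did not pass, and the median log2 fold change was -0.22. The ubiquitin gene Ubb was lowest, falling from 780 ± 79.9 to 556 ± 38.0 CPM normalized within this comparison (SD, n = 5 each, log2 fold change -0.49, adjusted p = 0.0016). The unfoldase Vcp, which extracts ubiquitinated proteins, changed by -0.29 (adjusted p = 0.0036). The shuttles Rad23b and Ubqln1, which bring ubiquitinated proteins to the proteasome, changed by -0.26 and -0.27 (adjusted p = 0.0066 and 0.0096). The core assembly factor Pomp (-0.22), the ubiquitin receptor Adrm1 (-0.24), the deubiquitinase Usp14 (-0.21), Txnl1 (-0.26), Fbxo7 (-0.29) and Akirin2 (-0.22) were also lower. Of 8 regulators, Nfe2l1, the transcription factor known to raise proteasome genes when the proteasome is impaired, was higher (122 ± 15.1 to 147 ± 4.51 CPM normalized within this comparison, log2 fold change 0.27, adjusted p = 0.031). The protease Ddi2 and the glycanase Ngly1, which process Nfe2l1, were lower (-0.34 and -0.20, adjusted p = 0.0066 and 0.029).

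Nfe2l1 and its relative Nfe2l2 bind antioxidant response elements, and the promoters that hold such letters are shown because Nfe2l1 itself was higher. RefSeq (build GRCm38.p6) gave 45 promoter entries for 42 of the 50 members, and Psmd7 had no entry. In the 250 bases before the start, the letters TGACNNNGC on either strand were found in 5 of 45 entries (11.1%), against 10.2% of 32851 promoters of the same length. CCAAT on either strand was found in 33.3% of entries against 33.8%. A form of the interferon-response motif (GAAA, any 2 bases, GAAA) was found in only 3 of 45 entries (6.67%, against 2.98%). These were the entries of Psmb3, Psmd4 and Psmd9, whereas those of Psmb8, Psmb9, Psmb10, Psme1 and Psme2 held 0 such matches. The 5 promoters with the first motif follow, 5′ to 3′ on the gene's strand, with matches in capitals. In Psmd9 the first stretch of capitals is the interferon-response form and the second TGACNNNGC, and no match overlaps another. The Psmd9 entry lies inside the GENCODE span of the gene given above, so its RefSeq start is not the start of that span.
Psmb5, chr14:54617996-54618245, minus strand: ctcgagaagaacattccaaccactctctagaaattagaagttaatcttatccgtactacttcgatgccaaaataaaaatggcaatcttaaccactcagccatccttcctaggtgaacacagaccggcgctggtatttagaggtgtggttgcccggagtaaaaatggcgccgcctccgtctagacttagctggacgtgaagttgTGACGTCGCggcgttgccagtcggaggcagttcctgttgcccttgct
Psmb6, chr11:70525107-70525356, plus strand: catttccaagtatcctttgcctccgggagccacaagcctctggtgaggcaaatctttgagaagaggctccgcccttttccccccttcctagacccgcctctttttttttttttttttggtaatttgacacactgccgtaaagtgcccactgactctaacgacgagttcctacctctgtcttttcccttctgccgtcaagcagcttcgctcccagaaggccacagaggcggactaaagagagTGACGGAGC
Psmc6, chr14:45329574-45329823, plus strand: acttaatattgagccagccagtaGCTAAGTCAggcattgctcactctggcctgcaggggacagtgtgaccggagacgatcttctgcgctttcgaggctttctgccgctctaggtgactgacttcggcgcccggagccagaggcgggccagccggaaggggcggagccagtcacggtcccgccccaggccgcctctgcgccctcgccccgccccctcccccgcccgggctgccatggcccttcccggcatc
Psmd12, chr11:107479278-107479527, plus strand: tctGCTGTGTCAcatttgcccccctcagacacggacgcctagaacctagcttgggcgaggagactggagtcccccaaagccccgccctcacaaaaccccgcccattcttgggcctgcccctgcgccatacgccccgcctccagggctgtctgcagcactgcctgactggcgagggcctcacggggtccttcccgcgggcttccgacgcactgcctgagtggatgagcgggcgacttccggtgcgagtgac
Psmd9, chr5:123227940-123228189, plus strand: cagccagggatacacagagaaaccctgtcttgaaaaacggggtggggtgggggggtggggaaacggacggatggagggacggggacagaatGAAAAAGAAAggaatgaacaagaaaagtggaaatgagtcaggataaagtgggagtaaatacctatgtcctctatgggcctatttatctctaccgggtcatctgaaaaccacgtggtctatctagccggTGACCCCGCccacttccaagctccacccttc

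Of the genes with these promoters, Psmc6 and Psmd12 were lower in Akita mice on ethanol, Psmd9 was higher, and Psmb5 and Psmb6 did not pass. A match of letters is a description of the sequence and does not show binding.

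In mice given MitoGamide, no member passed the test between genotypes. edgeR called 0 of 48 members between Akita and WT mice, against 14.3% of all genes. At an unadjusted p under 0.05 it gave 9 members (31.1% of all genes), 8 of them higher and 1 lower in Akita mice, and DESeq2 called 2, Psmb6 and Psmd13, both higher (18.5% of all genes that DESeq2 tested). The lid subunit Psmd13 had the smallest p, at 32.2, 37.7, 38.8, 40.9 and 40.3 normalized CPM in WT mice and 46.8, 42.9, 41.6, 44.3 and 46.6 in Akita mice. The groups did not overlap, with WT replicate 1 the lowest (log2 fold change 0.26 ± 0.08, adjusted p = 0.053). Psmb6 (0.22, adjusted p = 0.058) and the inhibitor Psmf1 (0.26, adjusted p = 0.072) came next. The 15 genes lower on ethanol gave log2 fold changes from -0.19 (Psmd2, adjusted p = 0.13) and -0.16 (Psmc2) to 0.08 (Psmd1), with Psmd7 at -0.07 ± 0.10, Psmc6 at -0.07 ± 0.08 and Psmd11 at 0.04 ± 0.12, while Psmd9 gave 0.24 ± 0.10 (adjusted p = 0.13). Of the partners Fbxo7 was lower, and of the regulators Nfe2l1 was higher and Ddi2 lower, as on ethanol. The offsets for length and GC content gave 3 calls, with Psma3 and Psma6 higher and Psmd2 lower. Leaving out Akita replicate 5 gave 1 call (Psme2, higher) and leaving out WT replicate 1 gave 1 call (Psmd2, lower). No share of all genes is given for the fits with offsets or without 1 library. The members' mean log2 level spread more between libraries of a group than on ethanol (SD 0.0973 against 0.0475). Calls on ethanol and none on MitoGamide therefore do not show that the effect of diabetes differed. The interaction given below tests that same difference, and it gave 0 calls among members and 0% of all genes.

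The effect of MitoGamide itself was compared with the ethanol vehicle within each genotype. In Akita mice edgeR called 0 of 48 members, against 1.26% of all genes. An unadjusted p under 0.05 was reached by 14 members (20.9% of all genes), 13 of them higher with MitoGamide. In 8 members every MitoGamide library was above every vehicle library, against 4.6% of all genes, and the median log2 fold change was 0.09 over members and 0.00 over all genes. DESeq2 called 6, all higher, against 6.82% of all genes it tested: Psma6, Psmc6, Psmd1, Psmd12, Psmd14 and Psme4. Without Akita MitoGamide replicate 5, edgeR called 4, all higher, with no share of all genes given for that fit. The direction of the summed level depended on the scaling: the 50 members summed to 2064 ± 175 CPM on vehicle and 2007 ± 79.5 on MitoGamide before normalization, and to 1984 ± 71.7 and 2123 ± 83.9 after it (SD, n = 5 each). Beside this, the mitochondrial share of counts was 21.6% to 28.7% on vehicle and 28% to 35.4% on MitoGamide, and the nuclear RNA Malat1 was at a mean of 9435 and 7116 CPM. Olfactory receptor transcripts were at 469 and 342 CPM. Their part in the result was not tested.

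Psmd12 of the lid stood at 30.7, 33.9, 30.2, 30.5 and 30.6 normalized CPM in Akita mice on vehicle and at 36.1, 40.6, 35.1, 38.8 and 40.3 on MitoGamide. The groups did not overlap (log2 fold change 0.30 ± 0.07, adjusted p = 0.054). Psmc6 gave 0.32 ± 0.07 (adjusted p = 0.055) and Psmd1 gave 0.24 ± 0.06 (adjusted p = 0.070), also without overlap. All 7 tested alpha ring genes, all 6 base ATPases and 7 of 8 lid genes had positive values, with medians of 0.14, 0.08 and 0.19. Of the 3 non-ATPase base subunits 2 were positive and 1 was negative (median 0.09). The constitutive beta ring had 2 positive and 5 negative values (median -0.04), and the 3 immunoproteasome genes were negative (median -0.24). The vehicle libraries of Akita mice enter both this comparison and that of diabetes on ethanol, so the 2 sets of values are not independent. For Psmd7 the values were -0.38 with diabetes and 0.26 with MitoGamide, for Psmc6 -0.28 and 0.32, for Psmd11 -0.30 and 0.15, for Psma5 -0.29 and 0.08, and for Psmd9 0.35 and -0.04. These genes were picked from those called on ethanol, and the values to be found with no change were not computed. Psmd2, also lower with diabetes, stood at 106 ± 6.33 normalized CPM in Akita mice on vehicle and at 99.7 ± 3.06 on MitoGamide (SD, n = 5 each).

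In WT mice MitoGamide gave 0 calls in edgeR and 0 in DESeq2, and 0% of all genes were called. An unadjusted p under 0.05 was reached by 10 members, all lower, against 10.6% of all genes. The smallest p belonged to Psmb6 (-0.23 ± 0.07, adjusted p = 0.31), followed by the core chaperone Psmg3 (-0.51 ± 0.15, adjusted p = 0.32) and Psmb5 (-0.33 ± 0.10, adjusted p = 0.33). Whether MitoGamide acted differently in Akita and WT mice was tested as an interaction over the 20 libraries of the ethanol arm. It gave 0 calls among members in edgeR and in DESeq2 and 0% of all genes. At an unadjusted p under 0.05 it gave 12 members, all with a higher effect in Akita mice, against 8.32% of all genes. All 17 base and lid genes had positive values, and the smallest p were those of Psmd1 (0.28 ± 0.08, adjusted p = 0.54), Psmc4 (0.27 ± 0.09, adjusted p = 0.57) and Psmd12 (0.27 ± 0.10, adjusted p = 0.58).

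**Figure D5:**
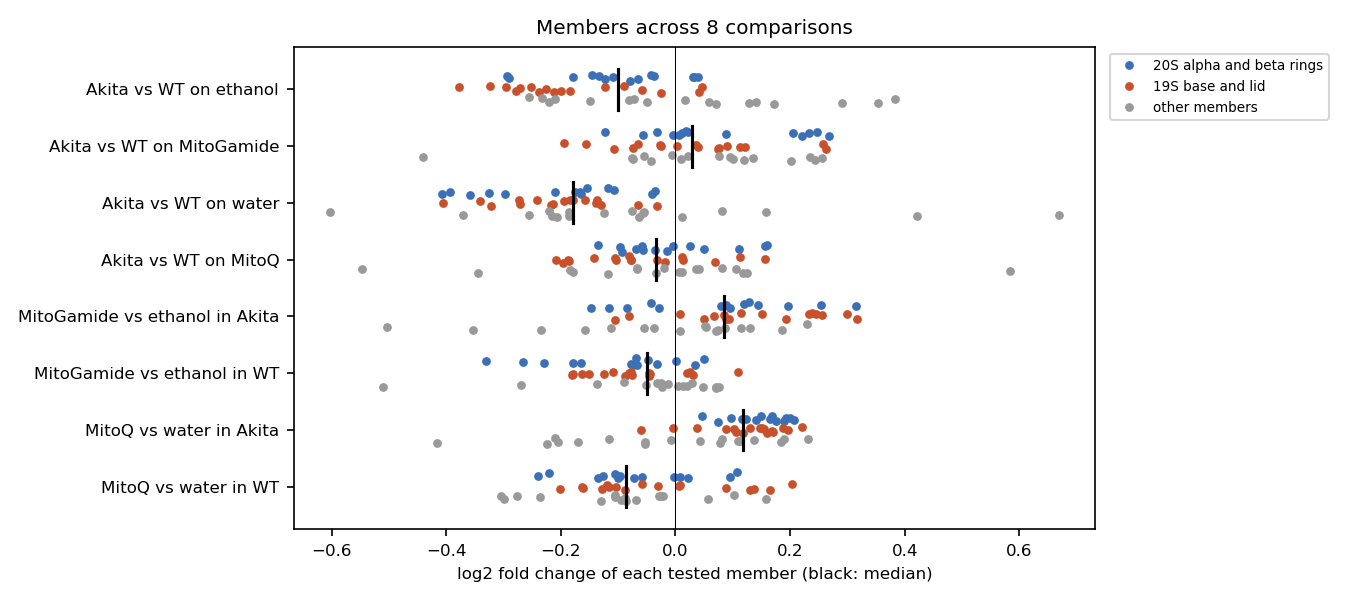
Log2 fold change of every tested member in 8 comparisons, with core ring genes, base and lid genes and other members in separate colours and the median of all tested members in black. Base and lid genes lie mostly below zero for Akita over WT mice on ethanol (15 of 17 negative) and mostly above it for MitoGamide over ethanol in Akita mice (median 0.11), 2 comparisons that share libraries.

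In the water arm, where MitoQ was the treatment, no member was called in any comparison. Akita against WT mice on water gave 0 of 49 members in edgeR and in DESeq2 (0.552% of all genes) and 0 at an unadjusted p under 0.05 (7.56% of all genes). The smallest p were those of Psmc4 (-0.41, adjusted p = 0.68), Psmc2 (-0.34) and Psmd3 (-0.27). All 17 base and lid genes and all 14 constitutive core genes had negative values, with medians of -0.19 and -0.17. The 3 immunoproteasome genes were negative as well (median -0.22), unlike on ethanol. The median over all tested members was -0.18, and it ran from -0.30 without Akita water replicate 1 to -0.0028 without WT water replicate 5. Without the low libraries the count was again 0, against 1.75% of all genes, and the median was -0.23. There 10 members had an unadjusted p under 0.05, 9 of them lower, against 16.3% of all genes, led by Psmc4 (-0.57). The spread behind these values was wide: Psmc2 ranged from 46.4 to 69.8 normalized CPM in the WT and from 36.7 to 51.3 in the Akita libraries.

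On MitoQ, Akita and WT mice gave 0 of 49 calls in edgeR and in DESeq2 (0.557% of all genes) and 0 at an unadjusted p under 0.05 (9.06%). The smallest p were those of Psmg4 (0.58, adjusted p = 0.56), Psme2b (-0.55) and Psmd7 (-0.19), and without the low libraries the count was 0 against 1.57%, with 1 member at an unadjusted p under 0.05 (13.2%). The median over members was -0.03, and 0.04 without the low libraries, and it ran from -0.16 without Akita MitoQ replicate 1 to 0.06 without WT MitoQ replicate 2. It was also above zero without Akita MitoQ replicate 3 or 4 or WT MitoQ replicate 4 or 5. Here too the 3 immunoproteasome genes had negative values (median -0.18). MitoQ against water gave 0 calls in both tools in Akita mice (0% of all genes, 0.0933% without the low libraries) and 0 members at an unadjusted p under 0.05 (1.96%). There the smallest p were those of Psmd11 (0.17), Psmd7 (0.16) and Psmd1 (0.20). The median over members was 0.12, and 0.01 without the low libraries, where again 0 members reached an unadjusted p under 0.05 (4.75%). Single libraries moved it from -0.04 (without Akita MitoQ replicate 1) to 0.24 (without Akita water replicate 1). In WT mice MitoQ against water also gave 0 calls in both tools (0% of all genes, 0.0285% without the low libraries) and 0 members at an unadjusted p under 0.05 (3.22%), led by Psmb10 (-0.30), Psmg3 (-0.30) and Psmd4 (-0.16). Its median over members was -0.09, and -0.23 without the low libraries, where 14 members had an unadjusted p under 0.05, all lower (16.9% of all genes). Single libraries moved this median from -0.175 (without WT water replicate 3) to 0.07 (without WT water replicate 5), and it was also above zero without WT water replicate 1 or WT MitoQ replicate 3. The diabetes effect on ethanol minus that on water gave 0 calls (0%, and 0% without the low libraries) in edgeR and DESeq2. At an unadjusted p under 0.05 it gave 1 member, Psmb9 (0.60), against 4.25% of all genes, followed by Psmd9 (0.27) and Psmb10 (0.39). Without the low libraries 10 members reached that p, all with a higher value on ethanol (15.5%), and the median over members went from 0.08 to 0.11. It was -0.09 without WT water replicate 5, also below zero without WT water replicate 1 or Akita water replicate 2, and 0.19 without Akita water replicate 1. A call on ethanol and none on water therefore does not show that the vehicles differed in the effect of diabetes.

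The vehicles themselves were compared across the arms. In Akita mice 6 of 49 members were higher on ethanol than on water, against 3.66% of all genes higher and 12.7% called in either direction. They were Psmb3 (log2 fold change 0.59, adjusted p = 0.030), Psmb5 (0.67, 0.040), Psmd10 (0.63, 0.044), Psmb6 (0.54, 0.045), Psmb4 (0.73, 0.046) and Psma7 (0.49, 0.047), that is 5 core subunits and the chaperone Psmd10. Psmb4 stood at 78.1, 70.1, 70.7, 74.8 and 67.0 normalized CPM on ethanol and at 62.2, 24.1, 38.1, 58.9 and 34.9 on water. The 3 lowest water values were those of replicates 2, 3 and 5, the libraries low in ribosomal protein transcripts. Without these, 0 members were called (0.0335% of all genes), 8 of 48 had an unadjusted p under 0.05 (15.7% of all genes), and the median over members went from 0.44 to 0.08. The count was also unstable to single libraries: 36 without Akita water replicate 1, 34 without replicate 4, 1 without replicate 2, 0 without replicate 3 or 5, 2 without Akita ethanol replicate 4 and 0 without Akita ethanol replicate 1, 2, 3 or 5. No share of all genes is given for these fits, so whether other genes moved alike is not shown. DESeq2 called 22 (23.8% of all genes it tested), and edgeR with the replicate number as a block called 0.

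In WT mice the same comparison gave 0 of 48 calls in edgeR (0% of all genes, and 0% without the low libraries), with 18 members higher at an unadjusted p under 0.05 (27.4% of all genes). The median over members was 0.41, and 0.00 without the low libraries. Without the low libraries 1 member had an unadjusted p under 0.05, against 8.88% of all genes. Without WT water replicate 5, 21 members were called, with no share of all genes given for that fit. The arm and the vehicle cannot be told apart in these comparisons.

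Over all treatments together, with treatment as a term in the fit, 7 of 48 members (14.6%) differed between Akita and WT mice, against 22.8% of all genes. The members' share of calls was thus below that of all genes. The lower genes were 5 regulatory particle subunits (10.4% of members, against 11.8% of all genes): Psmc2 (log2 fold change -0.24, edgeR adjusted p = 0.0011), Psmd7 (-0.21, 0.016), Psmc4 (-0.21, 0.023), Psmd4 (-0.13, 0.032) and Psmd2 (-0.25, 0.049). The higher genes were the chaperones Psmd9 (0.19, 0.0076) and Psmg4 (0.36, 0.023), which are 4.17% of members, against 11% of all genes. None of the alpha, beta or immunoproteasome genes passed. Of the 20 partners 6 were lower, and of the regulators Nfe2l1 and Nfe2l2 were higher and Ddi2 and Nfya lower. The median over members was -0.10, and -0.07 without the low libraries, where 12 members were called (25%, against 33.2% of all genes). It was -0.05 without Akita water replicate 2. Psmc2, Psmd9 and Psmg4 stayed called whichever of the 40 libraries was left out. Psmg4 lost its call with offsets for length and GC content and without a filter, where Psmc2 and Psmd9 stayed called. The count was 3 without WT water replicate 4 or WT MitoQ replicate 2. It was 4 without Akita ethanol replicate 3, Akita water replicate 2, 3 or 5, WT MitoGamide replicate 3 or WT MitoQ replicate 4.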

How the data were processed

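Renal cortex RNA was sequenced from 5 mice in each of 8 groups. According to the study's methods, the authors trimmed the single reads with Skewer, assigned them to GENCODE mouse transcripts with kallisto and summed transcripts to genes. What they deposited are whole-number estimated counts per gene, without scaling between libraries. The submitters' processing notes name kallisto 0.46.1, R 4.0.2 and GRCm38, and the strand setting is not given in the sources used here. The authors tested genes with DESeq2 and left out those with a mean under 10 counts.

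Here the estimated counts were used as deposited. Each comparison was fitted on its own libraries in R 4.3.3 with edgeR 4.0.16 (TMM, quasi-likelihood test), after leaving out rows averaging under 10 counts, and p-values were adjusted over all genes tested by the Benjamini-Hochberg method, with a call at an adjusted p under 0.05. The interaction and the fit over all treatments used all libraries concerned, the latter with treatment as a term. A standard error is the size of the log2 fold change over the root of the F statistic. Normalized CPM used TMM factors over the 40 libraries. Names, positions and shared 31-base sequences came from GENCODE release M21 on GRCm38, in which 99.5% of gene identifiers and all 50 members were found. This is not the release that the study's methods name for counting, so shared sequences may differ somewhat from those of the transcripts counted. The edgeR fit was run on simulated data for the comparison of diabetes on ethanol only, so the other comparisons were not covered.

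The genes named with values were those called in a comparison (the 10 with the smallest p where more were called), the 3 with the smallest p where none was, the catalytic, immunoproteasome and PA28 genes, and the 3 highest and 3 lowest tested genes per kb. Others are given by name or count. Alternatives were DESeq2 1.42.0, RLE normalization, no filter, all 40 libraries in 1 fit, the replicate number as a block, offsets for length and GC content, and each library left out in turn. Among these, a share of all genes is given for DESeq2 only. The limit of 6000 CPM of ribosomal protein transcripts was chosen after the data were seen. The members and lists were chosen with earlier results of these data known.

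One marker gene is not reported here.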

Additional observations from a re-analysis of the deposited data

Results flagged for a closer look

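Values far from the rest of their group were sought in 112 sets of 5 libraries, covering 12 of the named genes and summed levels, and 5 were found where the gap to the nearest library exceeded 0.71 of the range. Chance gives about 1 in 20. Proteasome transcripts summed to 514.5 CPM in WT mice on MitoQ replicate 3, against 1595 to 2012 in the other 4. Psma5 stood at 24.9 normalized CPM in Akita mice on MitoQ replicate 1, against 14.3 to 17.1. In Akita mice on MitoGamide, replicate 5 was apart for 2 genes, with Psmc2 at 49.2 against 53.1 to 54.7 and Psme1 at 26.5 against 22.4 to 23.3. The leukocyte markers summed to 113.7 normalized CPM in WT mice on MitoGamide replicate 5, against 64.8 to 74.0.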

How the results depend on the processing

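Of 680 alternative fits of single genes, 473 kept their direction and call, 207 lost the call and 0 reversed. The 16 calls for diabetes on ethanol became 8 without a filter, 10 with length and GC offsets and 1 with all 40 libraries in 1 fit, and 9 to 16 without 1 library. For Akita against WT mice on MitoGamide the 0 calls became 2 in DESeq2 and 3 with the offsets (0 to 1 without 1 library), and for MitoGamide against ethanol in Akita mice 6 in DESeq2 (0 to 4). The 6 calls for ethanol against water in Akita mice became 22 in DESeq2, 2 without a filter, 0 with the replicate block and 0 without the libraries low in ribosomal protein transcripts (0 to 36 without 1 library), where the median went from 0.44 to 0.0817. In WT mice the 0 calls became 5 with all 40 libraries in 1 fit (0 to 21 without 1 library), and the median became 0.0017 without the low libraries. The 7 calls over all treatments became 2 without a filter and 12 without the low libraries (3 to 7). Replicate numbers were not taken to pair the mice: correlations of same-numbered libraries ran from -0.498 to 0.703 over the 10 comparisons of 2 groups (-0.011 to 0.095 for diabetes on ethanol), and at most 3 of 5 pairs in any of them were over 0.1. With the replicate block 15 of the 16 calls for diabetes on ethanol remained. Normalization moved 5 of 88 summed levels by more than the spread, all in Akita mice on MitoGamide: to 2123 for all members, 345.6 for the alpha ring, 235.8 for the other base subunits, 410.2 for the lid and 356.1 for activators. The causes were not tested.

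With means of 1.43 and 8.98 counts per library, Psma8 and Psmb11 limit any statement on the testis and thymus forms. Genes without a call are not shown to be unchanged.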
